A study of Homo sapiens with 6 samples.

Results

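The genes described here are 10 immediate-early factors, FOS, FOSB, FOSL1, FOSL2, JUN, JUNB, JUND, EGR1, IER2 and IER3, chosen by name. Each had 1 probe on the array, and all 10 were among the 12111 genes tested, out of 20039 genes with a probe. They were measured in LoVo, an established human colorectal adenocarcinoma line, infected with lentivirus and grown under puromycin selection, which every group shared. The 3 groups held 2 arrays each: a control line (shCTL, described both as the pLKO.1 vector and as a non-targeting shRNA) and stable lines with the LGR5 hairpins shLGR5-1 and shLGR5-2. Each group is thus 1 infected line, and nothing in the labels says that its 2 samples came from separate cultures. LGR5 is a receptor for R-spondins, which enhance Wnt signalling, and the question is what its knockdown did to these factors.

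Immediate-early genes are transcribed within minutes of a growth factor or stress signal, without new protein synthesis. ERK and related kinases act on SRF and its ternary complex partners and on AP-1 itself at their promoters. FOS and JUN family proteins join through leucine zippers to form the transcription factor AP-1, and EGR1 is a zinc finger factor that binds GC-rich sites. In colorectal tumour cells, FOSL1 is known for its ties to ERK activity and to invasive behaviour.

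Of the 10 genes, EGR1 was higher with both hairpins, by 7.46-fold with shLGR5-1 and 11.2-fold with shLGR5-2. FOSL1 was the other gene higher with both, by 6.79-fold with shLGR5-1 and 1.51-fold with shLGR5-2. JUN was 1.96-fold lower with shLGR5-2 and did not pass the test with shLGR5-1. FOSB, FOSL2, JUNB and IER2 were also called higher with shLGR5-1 and were not called with shLGR5-2. With trends on gene length and chromosome removed, the shLGR5-1 directions of FOSB, JUNB and IER2 turned. Changes are on the log2(intensity + 16) scale, which understates those of dim probes, and a gene was called changed at a limma p, adjusted over all 12111 genes, under 0.05.

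LGR5 itself read 44.4 and 49.2 on the shCTL arrays, -1.1 and 7 with shLGR5-1, and 12.5 and 19.2 with shLGR5-2. It was called lower with each hairpin (limma adjusted p = 0.00167 and 0.0197), and readings under 16.5 lie below the noise threshold. All 10 epithelial markers were above that threshold in shCTL and with shLGR5-1, and 6 of 10 with shLGR5-2, where KRT20, VIL1, CEACAM5 and LGALS4 were not. Of 16 markers of fibroblasts, leukocytes and endothelium, 3 were above it on both arrays in each group, but not the same 3: CD68 in all groups, with PDGFRB and LYZ in shCTL, PDGFRB and CD14 with shLGR5-1, and DCN and CD14 with shLGR5-2. Their summed intensity was 1208 to 1299 in shCTL, 1453 to 1571 with shLGR5-1 and 386 to 394 with shLGR5-2. CD68, a macrophage marker also found in other cells, made up 1126, 1258 and 142.5 of those sums on average. In bulk RNA, fewer cells of a type and less RNA per cell cannot be told apart, and the part of these markers in the results was not tested. Values are the authors' normalized intensities, 2 arrays a group limit the precision, and each of the 10 genes was above the threshold on all 6 arrays, the lowest reading being 27.1.

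**Figure D1:**
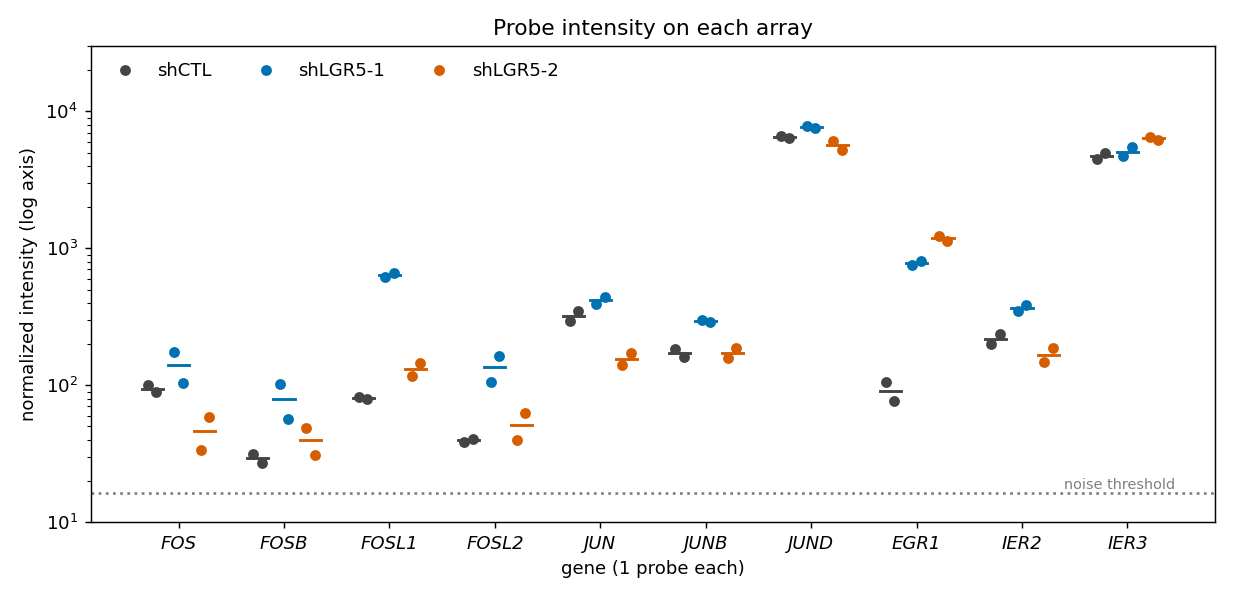
Normalized probe intensity (log axis) of the 10 genes on each array, with 2 points a group and a line at their mean. EGR1 with either hairpin, at 753 to 1233, lies far above the shCTL arrays at 77.3 and 105, and FOSL1 stands apart with shLGR5-1, at 622 and 660.

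EGR1 read 105.1 and 77.3 on the shCTL arrays, 753.4 and 800.8 with shLGR5-1, and 1232.7 and 1125.2 with shLGR5-2. The 3 groups did not overlap, and the order was shCTL, shLGR5-1, shLGR5-2. The log2 fold change was 2.90 ± 0.16 (SE, n = 2 against 2, limma adjusted p = 0.000219) with shLGR5-1 and 3.49 ± 0.16 (adjusted p = 0.000211) with shLGR5-2. The step between the hairpins was smaller, 1.51-fold higher with shLGR5-2 (0.59 ± 0.16, adjusted p = 0.0236). That step was not called when any 1 of the 4 hairpin arrays was left out (adjusted p 0.0671 to 0.109). The rise over shCTL was called for both hairpins in each of the 19 alternatives run.

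EGR1 was the gene of the 10 whose group means differed most, by 3.49 on the log2 scale, and its promoter is shown for the sites of its known regulator SRF. A search of the windows from 250 bases before to 50 after each RefSeq start (GRCh38.p14, 8 of the 10 genes matched) looked on both strands for the CArG box that SRF binds, the AP-1 element TGANTCA, the cyclic AMP element TGACGTCA, the JUN element TGACATCA and the EGR1 site GCGNGGGCG. The EGR1 window holds 2 CArG boxes, at -105 to -96 and -83 to -74, and GCGNGGGCG at -198 to -190. CArG boxes occur in 1.29% of the 35116 promoters of the table and GCGNGGGCG in 9.43%. In the EGR1 promoter below, at chr5:138465229-138465528 on the plus strand, capitals mark the CArG boxes.
EGR1: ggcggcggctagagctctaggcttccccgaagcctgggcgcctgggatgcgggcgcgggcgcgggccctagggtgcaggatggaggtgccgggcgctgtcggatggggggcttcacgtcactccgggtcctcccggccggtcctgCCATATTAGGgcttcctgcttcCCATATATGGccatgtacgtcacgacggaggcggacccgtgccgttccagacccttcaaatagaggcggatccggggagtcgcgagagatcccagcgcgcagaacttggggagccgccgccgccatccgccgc

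The 5 other genes whose profile over the 6 arrays lay closest to that of EGR1, by Euclidean distance between mean-centred log2 values, were IDS, VASN, THNSL2, ALG1L1P and LOC606724. IDS, the lysosomal iduronate sulfatase, was nearest at a distance of 0.261, with a mean intensity of 49.7 in shCTL, 517 with shLGR5-1 and 679 with shLGR5-2. VASN, a cell surface glycoprotein gene, followed at 0.449, and the others lay at 0.514, 0.537 and 0.588.

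Among the partners of EGR1, its co-repressors NAB1 and NAB2 changed in opposite directions. NAB2, itself an EGR1 target, went from a mean of 119 in shCTL to 233.5 with shLGR5-1 (1.85-fold higher, adjusted p = 0.0016) and 272.5 with shLGR5-2 (2.14-fold higher, 0.00182). NAB1 went from 654.5 to 77.7 (7.16-fold lower, adjusted p = 0.000244) and 246 (2.58-fold lower, 0.00354).

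FOSL1, which encodes the AP-1 subunit FRA1, read 81.5 and 80 in shCTL, 622.1 and 659.7 with shLGR5-1, and 116.6 and 144.4 with shLGR5-2. Its groups did not overlap, in the order shCTL, shLGR5-2, shLGR5-1. With shLGR5-1 the log2 fold change was 2.76 ± 0.14 (SE, n = 2 against 2, adjusted p = 0.000181). With shLGR5-2 it was 0.59 ± 0.14 (adjusted p = 0.0222), a call lost without either shCTL replicate (0.0982 and 0.106) or without shLGR5-2 replicate 2 (0.0641). The hairpins differed by 4.50-fold (adjusted p = 0.000183).

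FOSL2, which encodes the AP-1 subunit FRA2, was dim in control cells, at 38.8 and 40.7, and read 105 and 164.7 with shLGR5-1 and 39.9 and 62.9 with shLGR5-2. Both shLGR5-1 arrays lay above all others, while the shLGR5-2 and shCTL arrays overlapped. The change with shLGR5-1 was 2.65-fold (1.41 ± 0.26, adjusted p = 0.00594). With shLGR5-2 the log2 difference was 0.25, with a 95% interval from -0.42 to 0.93 (adjusted p = 0.474). The hairpins differed by 2.23-fold (adjusted p = 0.0116), a call lost without shLGR5-2 replicate 1 (0.0675).

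The FOSL2 window holds TGANTCA at 5 to 11 bases into the transcript, an element found in 7.71% of promoters. It is shown in capitals at chr2:28392608-28392907 on the plus strand.
FOSL2: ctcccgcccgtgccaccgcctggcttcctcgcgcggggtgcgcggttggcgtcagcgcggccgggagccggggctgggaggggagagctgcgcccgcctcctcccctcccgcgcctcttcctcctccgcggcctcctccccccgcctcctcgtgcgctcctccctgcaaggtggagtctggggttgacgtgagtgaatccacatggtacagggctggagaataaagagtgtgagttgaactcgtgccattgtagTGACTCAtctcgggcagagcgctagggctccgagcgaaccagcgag

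FOS and FOSB, the subunits best known for brief induction by serum, were dim and varied between replicates. FOS read 100.7 and 88.6 in shCTL, 175.9 and 103.8 with shLGR5-1, and 33.5 and 58.5 with shLGR5-2. Each group of FOS values lay apart from the others, high with shLGR5-1 and low with shLGR5-2. Neither difference from control was called, at 0.46 with shLGR5-1 (95% interval -0.33 to 1.24, adjusted p = 0.232) and -0.86 with shLGR5-2 (-1.65 to -0.08, adjusted p = 0.0749). The hairpins differed from each other by 2.50-fold, lower with shLGR5-2 (adjusted p = 0.0125). Without shLGR5-1 replicate 1 or shLGR5-2 replicate 1 that adjusted p was 0.0534 or 0.0735.

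FOSB read 31.3 and 27.1 in shCTL, 102.9 and 57.1 with shLGR5-1, and 48.5 and 31 with shLGR5-2. It was 2.06-fold higher with shLGR5-1 (1.05 ± 0.29, adjusted p = 0.0227), and both those arrays lay above all others. That call was lost without either shCTL replicate (0.0928 and 0.12), without shLGR5-1 replicate 1 (0.0752) and with no filter on dim probes (0.0691). With shLGR5-2 the log2 difference of FOSB was 0.29, with a 95% interval from -0.45 to 1.02.

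The replicates of FOS differed by 0.16 on the log2 scale in shCTL, 0.68 with shLGR5-1 and 0.59 with shLGR5-2. The last 2 exceed the replicate difference of 82.8% and 88.9% of genes, whose medians were 0.18 and 0.19. FOSB, at 0.70 and 0.46, and FOSL2, at 0.58 and 0.50, exceeded at least 79.2% of genes in each hairpin group, and FOSL1, at 0.08 and 0.27, exceeded 29.8% and 64.6%.

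JUN, the main partner of the FOS proteins, read 295.1 and 347.6 in shCTL, 393.1 and 441.6 with shLGR5-1, and 140.4 and 172.5 with shLGR5-2. No groups overlapped, and the shLGR5-2 arrays were the low ones. JUN fell by 0.97 ± 0.16 on the log2 scale with shLGR5-2 (SE, n = 2 against 2, adjusted p = 0.00772). Without shCTL replicate 2 the adjusted p was 0.0562. With shLGR5-1 the log2 difference was 0.36, with a 95% interval from -0.05 to 0.77 (adjusted p = 0.093), and between the hairpins JUN was 2.52-fold lower with shLGR5-2 (adjusted p = 0.0012).

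JUN is known to act on its own promoter through an AP-1-like element, and its window holds TGACATCA at -67 to -60, a string found in 2.61% of promoters. The promoter lies at chr1:58783998-58784297 on the minus strand, and capitals mark that element.
JUN: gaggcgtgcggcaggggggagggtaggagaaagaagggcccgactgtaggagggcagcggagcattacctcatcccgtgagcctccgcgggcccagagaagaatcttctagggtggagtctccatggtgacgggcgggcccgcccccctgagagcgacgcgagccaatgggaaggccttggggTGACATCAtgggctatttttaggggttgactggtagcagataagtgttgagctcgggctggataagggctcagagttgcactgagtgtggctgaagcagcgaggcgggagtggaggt

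JUNB, which can act as a weaker partner than JUN in AP-1, read 185.3 and 159.7 in shCTL, 301.2 and 289.7 with shLGR5-1, and 157.7 and 187.6 with shLGR5-2. Only the shLGR5-1 arrays stood apart from the rest, 1.66-fold above shCTL (0.73 ± 0.14, adjusted p = 0.00685) and as far above shLGR5-2 (adjusted p = 0.00663). The shLGR5-2 mean was 172.65 against 172.5 in shCTL, and the 95% interval of the log2 difference ran from -0.36 to 0.36. JUND, the most constantly expressed JUN family member in most cells, read 6583.7 and 6420.9 in shCTL, 7856.6 and 7523.3 with shLGR5-1, and 6112.2 and 5206.3 with shLGR5-2. Its groups did not overlap but lay close together. Neither hairpin was called against control, with log2 differences of 0.24 (95% interval -0.09 to 0.57) and -0.20 (-0.53 to 0.13). Between the hairpins JUND was 1.36-fold lower with shLGR5-2 (adjusted p = 0.0261), a call lost in the fit without either shCTL replicate, either shLGR5-1 replicate or shLGR5-2 replicate 2 (0.0563 to 0.0837) and with only those 2 groups in the fit (0.0524). TGACGTCA, found in 1.85% of promoters, stands at -200 to -193 in the JUND window.

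IER2, a nuclear protein induced with the FOS and JUN genes, read 201.7 and 235 in shCTL, 347.9 and 383.1 with shLGR5-1, and 148 and 187.1 with shLGR5-2. The groups were separate, with shLGR5-1 high. The change with shLGR5-1 was 1.63-fold (0.71 ± 0.16, adjusted p = 0.0123). That call was lost in 3 of 19 alternatives, and the direction turned in 2 more. The losses included the fits without shCTL replicate 1 and without shLGR5-1 replicate 2. With shLGR5-2 the log2 difference was -0.36, with a 95% interval from -0.77 to 0.06 (adjusted p = 0.133). IER2 was 2.09-fold lower with shLGR5-2 than with shLGR5-1 (adjusted p = 0.00276).

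IER3, a stress-induced regulator of survival and ERK signalling, was bright throughout. It read 4460.2 and 4939.1 in shCTL, 4694.3 and 5445.9 with shLGR5-1, and 6464.4 and 6218.8 with shLGR5-2. Only the shLGR5-2 arrays stood apart. Their log2 difference from shCTL was 0.43 (95% interval 0.09 to 0.77), just outside the threshold (adjusted p = 0.0505), and it was called in 10 of 19 alternatives. With shLGR5-1 the difference was 0.11 (-0.23 to 0.45, adjusted p = 0.5).

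**Figure D2:**
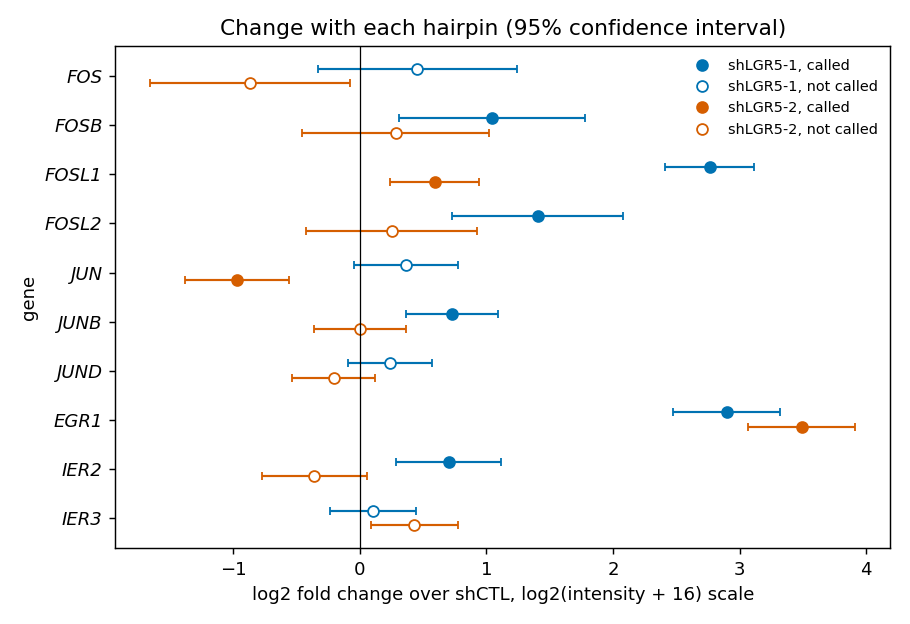
Log2 fold change of each gene over shCTL for shLGR5-1 (blue) and shLGR5-2 (orange), with 95% confidence intervals from limma (n = 2 against 2). Filled points passed the test, which were 6 of 10 with shLGR5-1, all higher, and 3 of 10 with shLGR5-2, of which JUN was lower. Among all genes tested, 71.8% passed with shLGR5-1 (40.3% higher) and 44.2% with shLGR5-2.

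Counted over the group, 6 of the 10 genes were called higher with shLGR5-1 and 0 lower, and the median log2 difference was 0.72. Of all genes tested, 71.8% were called in that comparison, 40.3% higher and 31.5% lower, and their median was 0.28. With shLGR5-2, 2 of the 10 were called higher and 1 lower, with a median of 0.13. There 44.2% of all genes were called, 21.6% higher and 22.6% lower, with a median near 0. The 3 of 10 called is thus no result about these genes. Without shCTL replicate 2, fewer of the 10, and fewer of all genes, were called with shLGR5-2. Both comparisons share the shCTL arrays.

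Averaged over the 2 hairpins, EGR1 (9.15-fold, adjusted p = 0.000286), FOSL1 (3.20-fold, 0.000579) and FOSL2 (1.78-fold, 0.0284) were higher than shCTL and 0 of the 10 were lower. The share of all genes called was 58.7%, with 28.7% higher and 30.0% lower. The shLGR5-2 arrays of FOSL2 overlapped the controls, and its call for the average was lost in 5 of 18 alternatives: without either shCTL replicate (0.151 and 0.136), without shLGR5-1 replicate 2 (0.0527) or shLGR5-2 replicate 2 (0.0768), and with no filter on dim probes (0.0793). In the direct comparison of the hairpins, 1 of the 10 (EGR1) was higher with shLGR5-2 and 7 were lower, against 73.3% of all genes called, 33.6% higher and 39.8% lower. Without shLGR5-1 replicate 1 or without shLGR5-2 replicate 1, fewer of the 10 were called, all lower, and fewer of all genes.

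Gene length moved with these results. With shLGR5-1, log2 fold changes over the 12104 genes with a known genomic span fell with that span (Spearman correlation -0.325 across genes, which are not independent replicates), and with shLGR5-2 they did not (0.0107). The 10 genes are short, from 1349 bases for IER3 to 8497 for FOSL1, with FOSL2 longer at 24460. Of the 2603 genes tested that were no longer than FOSL1, 55.6% were called higher with shLGR5-1 and 11.1% lower, with a median log2 difference of 0.72. FOSB, JUNB, JUND and IER2 lie on chromosome 19, whose 796 tested genes had a median of 0.86 with shLGR5-1 and 0.11 with shLGR5-2.

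With each array's trend on span and its chromosome medians removed, among 9811 genes at an intensity of 64 or more in at least 1 group, 3 of the rises with shLGR5-1 remained. These were EGR1 at 2.70 (adjusted p = 9.9e-05), FOSL1 at 1.81 (0.000145) and FOSL2 at 1.62 (0.00249). JUNB turned to -0.74 (adjusted p = 0.00278), IER2 to -0.68 (0.00874) and FOSB to -0.26 (0.439). JUN (-0.58, adjusted p = 0.0183), JUND (-1.22, 0.000729) and IER3 (-0.61, 0.0106), not called as fitted, were called lower, and FOS was at -0.27 (0.39). The share of the 9811 genes called with shLGR5-1 in that fit is not given here. For the mean of both hairpins, 65.5% of the 9811 genes were called with both trends removed. Whether the calls after removal set these genes apart from the rest was not tested. The same removal left EGR1 at 3.97, FOSL1 at 0.43 and JUN at -1.01 with shLGR5-2, all still called. Between the hairpins it turned JUNB to 0.69 and JUND to 0.96, both called higher with shLGR5-2, and ended the calls of FOS, JUN and IER2 (adjusted p = 0.141, 0.0523 and 0.213). The directions of FOS, FOSB, JUN, JUNB, JUND, IER2 and IER3 with shLGR5-1 thus depend on this choice, and which of the fits is nearer to the cells' RNA was not tested.

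**Figure D3:**
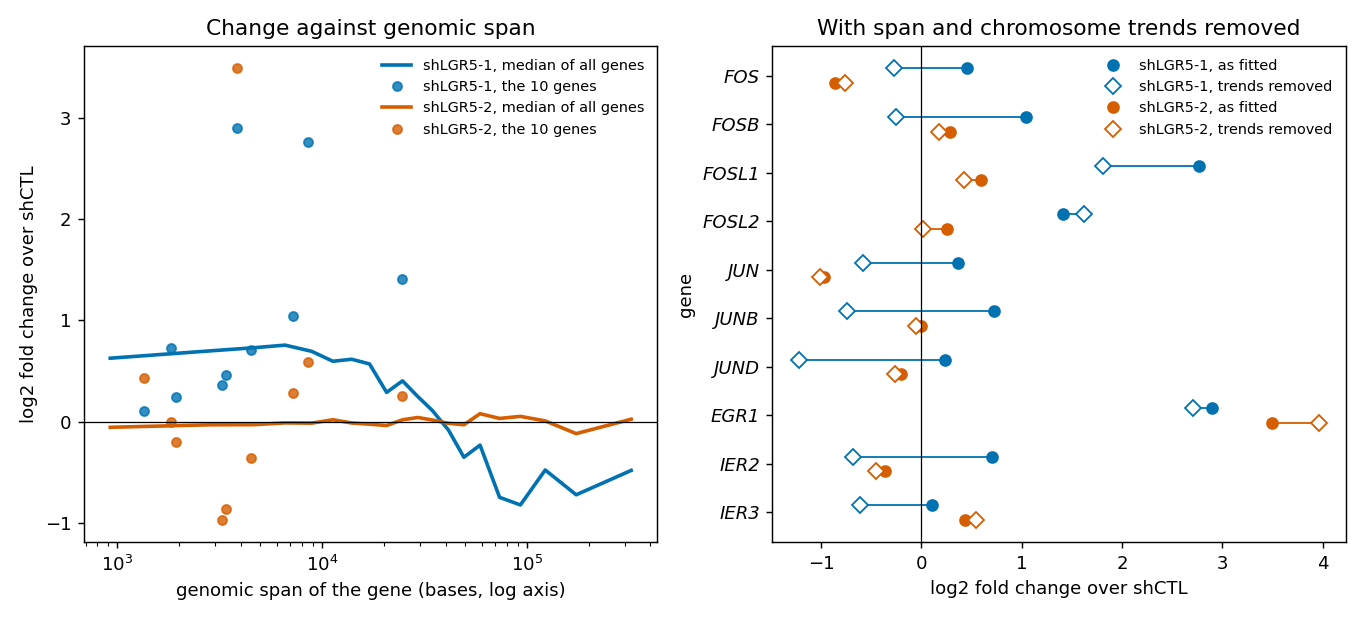
Left, log2 fold change over shCTL against genomic span (log axis), with lines for the median of all genes in 20 equal-sized bins of span and points for the 10 genes. Right, the 10 genes as fitted (filled) and with the span and chromosome trends removed (open), where 7 genes cross or move below 0 with shLGR5-1 and EGR1, FOSL1 and FOSL2 stay above it.

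Other immediate-early genes moved both ways. Of 29 tested, 16 were higher and 6 lower with shLGR5-1 (median 0.48), and 9 were higher and 9 lower with shLGR5-2 (median 0.03). That is 75.9% and 62.1% called, against 71.8% and 44.2% of all genes. CCN1, a matricellular protein gene, went from 13.3 in shCTL, above the threshold on 1 of 2 arrays, to 195 with shLGR5-1 and 1210 with shLGR5-2 (adjusted p = 0.000324 and 0.000109), and no fold is given against that dim control. CCN2, a gene of the same family, rose 13.2-fold with shLGR5-2 by its brightest probe (adjusted p = 0.000173), and the small GTPase gene RHOB 3.99-fold (0.000457). With shLGR5-1 CCN2 rose 2.67-fold by that probe and RHOB 2.08-fold (adjusted p = 0.00123 and 0.00132). The other CCN2 probe gave smaller log2 differences, 2.58 with shLGR5-2 against 3.72, and 0.94 with shLGR5-1 against 1.42. CSRNP1, a nuclear protein gene, rose 2.92-fold with shLGR5-1 and 2.22-fold with shLGR5-2 (adjusted p = 0.000568 and 0.00284). The zinc finger gene KLF6 fell from 1735 to 417 with shLGR5-1 (4.05-fold, adjusted p = 0.000193) and the antiproliferative gene BTG1 2.73-fold (0.000617). With shLGR5-2 KLF6 fell 2.08-fold and BTG1 1.91-fold (adjusted p = 0.00173 and 0.00497). ATF3, a stress-induced partner of JUN, fell from 870 to 104.5 with shLGR5-2 (7.35-fold, adjusted p = 0.000124) and 2.15-fold with shLGR5-1 (0.000828).

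Other bZIP factors form zipper dimers too, several of them with FOS or JUN. Of 22 such genes tested, 3 were higher and 9 lower with shLGR5-2 (median -0.31), against 7 higher and 8 lower with shLGR5-1 (median -0.05). Calls made up 54.5% with shLGR5-2 and 68.2% with shLGR5-1, against 44.2% and 71.8% of all genes. BATF3 went from 124 to below the threshold with shLGR5-2, at least 7.53-fold lower (adjusted p = 0.000124). The CHOP gene DDIT3 fell 6.40-fold with shLGR5-1 and 10.0-fold with shLGR5-2 (adjusted p = 0.000251 and 0.000243). CEBPD and CEBPA, genes of the C/EBP family, fell 3.99-fold and 3.80-fold with shLGR5-2 (adjusted p = 0.000691 and 0.000865). CEBPA was 1.49-fold higher with shLGR5-1 (adjusted p = 0.0207), where CEBPD was not called. With shLGR5-1 CEBPG fell 14.3-fold, and NFE2L2, the NRF2 gene, fell from 2071 to 103 (17.7-fold, adjusted p = 0.000183). CEBPG also fell 3.19-fold with shLGR5-2 (adjusted p = 0.00155), where NFE2L2 was not called. NFE2L3 fell 5.84-fold with shLGR5-1 by its brightest probe, but its 2 probes went opposite ways with shLGR5-2 (-1.71 and 1.34), so its direction is uncertain.

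SRF and its cofactors act on CArG boxes. Of 6 such genes tested, 3 were higher and 1 lower with shLGR5-1 (median 0.37), and 3 were higher and 0 lower with shLGR5-2 (median 1.11). In percentages 66.7% and 50% were called, against 71.8% and 44.2% of all genes. MRTFA, an actin-regulated SRF coactivator gene, was below the threshold in shCTL and at least 3.78-fold and 3.18-fold higher (adjusted p = 0.000194 and 0.000374). ELK1, a ternary complex factor phosphorylated by ERK, went from 395 to 1220 (3.01-fold, adjusted p = 0.000376) and 1036 (2.56-fold, 0.00112). SRF itself was 1.66-fold higher with shLGR5-1 (adjusted p = 0.0133) and was not called with shLGR5-2. MRTFB was at least 1.90-fold lower with shLGR5-1 and 2.59-fold higher with shLGR5-2 (adjusted p = 0.0165 and 0.0416).

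Genes for RAS, RAF and MAP kinases upstream of these factors split in both comparisons. Of 17 tested, 9 were higher and 5 lower with shLGR5-1 (median 0.50), and 3 were higher and 3 lower with shLGR5-2 (median -0.05). The shares called were 82.4% and 35.3%, against 71.8% and 44.2% of all genes. MAP2K4, which activates JNK, was at least 25.5-fold lower with shLGR5-1 (adjusted p = 0.000122), with a mean of 420 in shCTL and 581 with shLGR5-2. The MSK kinase genes went opposite ways, RPS6KA5 6.90-fold lower (adjusted p = 0.000191) and RPS6KA4 3.11-fold higher (0.000309) with shLGR5-1. With shLGR5-2 RPS6KA5 was 2.41-fold lower and RPS6KA4 1.75-fold higher (adjusted p = 0.0026 and 0.00466). MAP2K3, which activates p38, was 2.53-fold higher with shLGR5-1 (adjusted p = 0.000525), and the p38 gene MAPK12 was 2.27-fold lower with shLGR5-2 (0.00193). MAPK12 was 2.05-fold higher with shLGR5-1 (adjusted p = 0.00131).

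Of 18 AP-1 target genes tested, 9 were higher and 6 lower with shLGR5-1 (median 0.48), and 6 higher and 6 lower with shLGR5-2 (median 0.19). Together 83.3% and 66.7% were called, against 71.8% and 44.2% of all genes. PTGS2, the COX-2 gene, went from 3170 to 87.0 and 134, 31.8-fold and 21.5-fold lower (adjusted p = 0.000211 and 0.000444). The chemokine gene CXCL8 was 8.69-fold lower with shLGR5-1 (adjusted p = 0.000601) and was also called lower with shLGR5-2 (log2 difference -3.63). The gap junction gene GJA1 fell from 420 to 45.1 with shLGR5-1 (7.20-fold, adjusted p = 0.000228) and was at least 25.5-fold lower with shLGR5-2 (0.000132). The protease gene MMP7 was at least 3.21-fold lower with shLGR5-2 (adjusted p = 0.000443), and the cyclin D1 gene CCND1 rose there from 3676 to 13190 (3.58-fold, 0.00046). ITGA2, an integrin gene, fell from 272 to 17.2 with shLGR5-1 (adjusted p = 0.000403), where 1 of 2 arrays was above the threshold, so no fold is given.

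Of 11 EGR1 target genes tested, NAB2 included, 5 were higher and 3 lower with shLGR5-1 (median 0.86), and 2 higher and 4 lower with shLGR5-2 (median 0.41). These calls make 72.7% and 54.5% of the list, against 71.8% and 44.2% of all genes. PTGES, a prostaglandin E synthase gene, was 3.97-fold higher with shLGR5-1 (adjusted p = 0.00028) and was also called higher with shLGR5-2 (log2 difference 1.00). The matrix glycoprotein gene THBS1 was 2.85-fold lower with shLGR5-1 (adjusted p = 0.000875). GDF15, a stress cytokine gene, was 2.05-fold and 4.03-fold lower with the 2 hairpins (0.000897 and 0.000302). With shLGR5-2 the growth factor genes HBEGF, 3.05-fold, and PDGFA, at least 14.8-fold by its brightest probe, were lower (adjusted p = 0.000662 and 0.00098). The other PDGFA probe fell less there. With shLGR5-1 HBEGF was not called, and PDGFA was called higher by its brightest probe (2.19-fold, adjusted p = 0.0192). The probes of PDGFA disagreed in direction with shLGR5-1, so its direction with that hairpin is uncertain.

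Of 6 genes for ubiquitin ligases, kinases and adaptors that control JUN or FOS protein stability, 2 were higher and 3 lower with each hairpin. This is 83.3% called with each, against 71.8% of all genes with shLGR5-1 and 44.2% with shLGR5-2. The JUN ligase gene ITCH was at least 6.88-fold lower with shLGR5-1 and 1.89-fold lower with shLGR5-2 (adjusted p = 0.000162 and 0.00505). COP1, another JUN ligase gene, was 2.64-fold lower with shLGR5-1 (adjusted p = 0.000442) and was not called with shLGR5-2. The 2 higher with shLGR5-2 were CSNK2A1 (2.49-fold, adjusted p = 0.00121) and GSK3B (1.48-fold, 0.0206). The 2 higher with shLGR5-1 were GSK3B (1.47-fold, adjusted p = 0.0122) and DET1 (1.44-fold, 0.048). DET1 was called lower with shLGR5-2 (log2 difference -0.64). FBXW7 was at least 19.1-fold lower with shLGR5-1 by its brightest probe (adjusted p = 0.000181), but another of its probes gave 1.37, so its direction is uncertain.

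**Figure D4:**
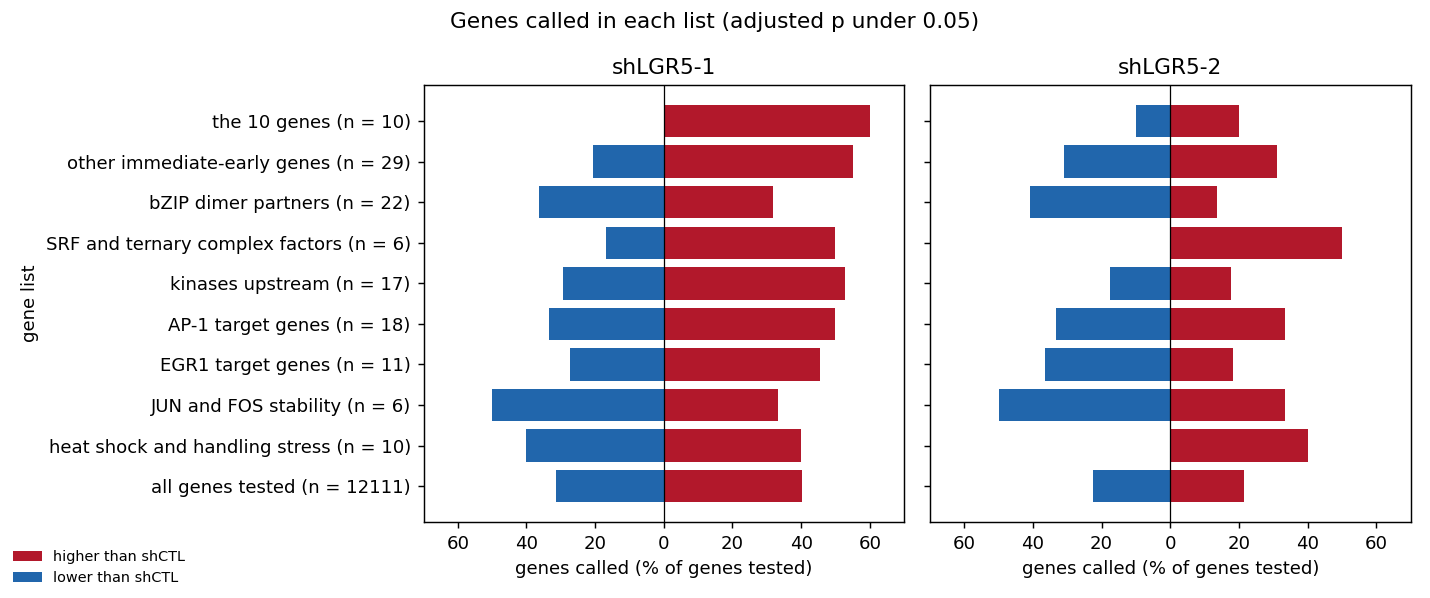
Percentage of the tested genes of each list called higher (red, right) or lower (blue, left) than shCTL with shLGR5-1 and shLGR5-2, with the number tested in brackets and all 12111 genes at the bottom. The 10 genes show 60% higher and none lower with shLGR5-1, where 40.3% of all genes were higher, and most other lists hold calls in both directions.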

How the data were processed

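RNA from 6 LoVo samples was hybridised to Illumina bead arrays. The deposited intensity values, 1 per probe and array for 47323 probes, look background-corrected and equalised in rank between arrays by the authors: 30.5% were below 0 on each array, medians were 10.9 to 11 and no rank differed by over 0.7. The submitters' processing notes name GenomeStudio. A further 12 columns were not used, since their names match no sample's labels.

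Intensities were floored at 0, offset by 16 and put on the log2 scale. The noise SD was 10, the root mean square of all values below 0, and 21792 probes exceeded the 16.5 threshold in both samples of a group. The supplied annotation, updated by RefSeq (GRCh38.p14), gave 30113 probes 1 gene, 8 several and 17202 none. Each gene was read from its brightest kept probe.

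A limma 3.58.1 fit (R 4.3.3) took the 3 groups together, with 3 residual and 2.01 prior degrees of freedom, and was tested on simulated data. Two-sided p-values were adjusted over 12111 genes (Benjamini-Hochberg). They reflect spread among samples that may be technical repeats. A fold of "at least" sets dim readings to the noise threshold and adds no offset. Genes of other lists are named by smallest adjusted p, up to 4 for each list and hairpin. The members and lists were chosen with earlier results of these data known. No slide or scan date was given to test as a batch. Alternatives changed the offset, filter, probe rule, samples fitted, variance prior, replicate block, replicates, and trends with span (lowess on log10 span) and chromosome. Removal of either trend alone was added after seeing the data.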

Additional observations from a re-analysis of the deposited data

Results flagged for a closer look

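The effects of the 2 hairpins differed, by the direct test of shLGR5-2 over shLGR5-1 (limma, adjusted over 12111 genes), for 8 of the 10 genes, against 73.3% of all genes. The log2 difference was -1.32 for FOS, -2.17 for FOSL1, -1.15 for FOSL2, -1.33 for JUN, -0.73 for JUNB, -0.45 for JUND, -1.06 for IER2 and 0.59 for EGR1. With span and chromosome trends removed, FOSL1 (-1.39), FOSL2 (-1.61) and EGR1 (1.26) were still called in the same direction.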

How the results depend on the processing

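Of 750 values of single genes under an alternative, 638 kept direction and side of the threshold, 37 lost the call, 35 gained one and 40 changed sign. The rises of EGR1 with both hairpins and of FOSL1 and FOSL2 with shLGR5-1 were called in all 19 alternatives each. The 2 arrays a group limit the precision.

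The number of the 10 genes called for the mean of both hairpins, 3 as fitted against 58.7% of all genes, was 5 with a stricter filter (68.8% of all genes), 7 with span and chromosome trends removed (65.5%) and 6 with chromosome medians alone removed (64.8%). With shLGR5-2, 3 as fitted, it was 5 with the stricter filter (55.2%), with only the groups compared (48.9%) and with chromosome medians alone removed (51.3%), and 1 to 4 when 1 array was left out (24.3% to 42% of all genes). Between the hairpins, 8 as fitted, it was 5 to 7 when 1 array was left out (61.5% to 66.4%). Replicate numbers did not pair the samples (deviations correlated at 0.0168, 0.00679 and 0.0021). With them as a block the calls were 4 for the mean, 6 with shLGR5-1, 3 with shLGR5-2 and 9 between hairpins. As fitted they were 3, 6, 3 and 8. The share of all genes called with that block is not given here.

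Removing both trends turned, for the mean, FOSB to -0.040, JUNB to -0.40, JUND to -0.74, IER2 to -0.56 and IER3 to -0.030. With shLGR5-1 it turned FOS to -0.27, FOSB to -0.26, JUN to -0.58, JUNB to -0.74, JUND to -1.22, IER2 to -0.68 and IER3 to -0.61. Between hairpins it turned FOSB to 0.43, JUNB to 0.69, JUND to 0.96 and IER2 to 0.22. Removing span alone turned, for the mean, JUND to -0.33, IER2 to -0.15 and IER3 to -0.068. With shLGR5-1 it turned FOS to -0.26, JUN to -0.36, JUNB to -0.039, JUND to -0.52 and IER3 to -0.66, with shLGR5-2 JUNB to 0.079, and between hairpins JUNB to 0.12 and JUND to 0.40. Removing chromosome medians alone turned, for the mean, JUNB to -0.19, JUND to -0.53 and IER2 to -0.38. With shLGR5-1 it turned JUNB to -0.24, JUND to -0.73 and IER2 to -0.26, and between hairpins FOSB to 0.075, JUNB to 0.11 and JUND to 0.39. Values near 0 also changed sign: JUNB with shLGR5-2 was 0.00010 with an offset of 50 and -0.11 to 0.11 when 1 array was left out, and JUND for the mean was -0.039 to 0.076. The cause was not tested.

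Over all genes, calls for the mean (7111) numbered 4607 and 4435 without shCTL replicate 1 and 2, and with shLGR5-2 (5349) 3084 and 3155. With every kept probe as a feature they were 13792 with shLGR5-1 and 14357 between hairpins. By gene they were 8701 (71.8%) and 8883 (73.3%). The totals differ, with 21792 probes kept against 12111 genes tested, so these counts cannot be set side by side.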

Other observations

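Of 10 heat shock and handling stress genes, which respond to protein damage, 4 were higher and 4 lower with shLGR5-1, where 71.8% of all genes were called. With shLGR5-2, 4 were higher and 0 lower, where 44.2% of all genes were called, 21.6% higher and 22.6% lower. The totals called, 80% and 40% of the list, lie near those shares of all genes. Whether the direction with shLGR5-2 sets the list apart was not tested. HSPB1, a small heat shock protein gene, went from 1970 to 8153 (4.11-fold, limma adjusted p = 0.00022) and 18020 (9.06-fold, 0.000105). The co-chaperone genes BAG3 and DNAJB1 rose 3.05-fold and 3.16-fold with shLGR5-1 and 3.54-fold and 2.26-fold with shLGR5-2. HSPD1, a mitochondrial chaperonin gene, fell 4.14-fold with shLGR5-1, and HSPH1 rose 3.71-fold with shLGR5-2. HSPH1 went the other way with shLGR5-1, 8.94-fold lower (adjusted p = 0.00064). The part of these heat shock genes in the immediate-early results was not tested.

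Epithelial markers split in both comparisons, with 5 of 10 higher and 5 lower with shLGR5-1 and 5 higher and 4 lower with shLGR5-2. These are 100% and 90% called, against 71.8% and 44.2% of all genes. The 5 higher with shLGR5-2 were CDH1 (log2 difference 1.48), KRT19 (0.67), KRT18 (0.63), KRT8 (0.57) and EPCAM (0.42). Probes of KRT18 and of EPCAM disagreed in direction there. The adhesion gene CEACAM5 went from 1202 to below the noise threshold with shLGR5-2, at least 72.9-fold lower (adjusted p = 4.13e-05). Of 5 tested markers of other cell types, 1 was higher and 1 lower with shLGR5-1 (40% called), and 1 higher and 2 lower with shLGR5-2 (60%). CD68 fell from 1126 to 142.5 with shLGR5-2 by its brightest probe, and its 3 probes ranged from -2.85 to -0.56. The marker higher with each hairpin was CD14, from 18.25 to 109 and 135 (adjusted p = 0.00625 and 0.00716). In shCTL it was above the threshold on 1 of 2 arrays.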
